A study of Mus musculus with 12 samples.

Results

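The 34 genes described here belong to the pluripotency network of mouse embryonic stem cells, and each was read from 1 probe set in every group of a study that reprogrammed cultured astrocytes. They were taken from a list of symbols, and all 34 were measured among the 19938 genes with a probe set annotated to a single gene. Where a gene had several such probe sets, the brightest on average across the 12 arrays was used. The genes were then ordered by how much of the difference between astrocytes and induced pluripotent stem cells (iPSCs) had already been reached at day 6 of reprogramming.

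Expression was profiled with Mouse Gene 1.0 ST arrays from Affymetrix, and 5 groups of cells were used. The day 6 cells (3 arrays) were astrocytes that had received retroviruses for Oct4, Sox2, Klf4 and c-Myc, grown in embryonic stem cell medium with LIF and sorted on day 6 as positive for a GFP reporter at the Sox1 locus. The astrocyte iPSCs (2 arrays) were lines made from the same kind of cells, carrying the Sox1-GFP reporter and kept on mitomycin-treated mouse embryonic fibroblasts with LIF. The MEF iPSCs (2 arrays) were 1 clonal line from mouse embryonic fibroblasts, iPS-MEF-Ng-20D-17, which carries a GFP and puromycin reporter driven by Nanog, a gene of the list. The neural stem cells (2 arrays) came from the telencephalon, at embryonic day 12.5 to 14.5, of Sox1-GFP mice and were grown with bFGF and EGF. The starting astrocytes (3 arrays) came from the cortex of 3-day-old Sox1-GFP pups and were sorted as GFP-negative after culture in serum. Fetal bovine serum was at 10% for astrocytes and 15% for day 6 cells. LIF was at 1000 U/ml for day 6 cells and 1500 U/ml for both iPSC groups. The part of these culture differences in the results was not tested. All groups other than the MEF iPSCs carried the Sox1-GFP allele (Sox1+/-), and the day 6 population is the GFP-positive fraction of the transduced cells. The design text calls the replicates biological without naming their animals or cultures, so p-values measure the spread among these arrays, some of which may be technical.

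Mouse pluripotency rests on a circuit in which Oct4 and Sox2, together with Nanog, Esrrb, Klf factors and other regulators, bind each other's genes and hold the cell in a self-renewing state. LIF feeds this circuit through Stat3 targets such as Tfcp2l1, Klf4 and Gbx2. During reprogramming the viral factors are present from the start, whereas the endogenous circuit has to be switched on.

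At day 6 the list was divided. Of the 34 genes, 11 rose against astrocytes (Nr0b1, L1td1, Sall4, Rif1, Alpl, Nr5a2, Nanog, Zfp296, Eras, Fgf4 and Klf5), 2 fell (Tfcp2l1 and Klf2) and 21 did not pass the test. Between day 6 and astrocyte iPSCs, 24 genes rose and none fell, and 27 were higher in astrocyte iPSCs than in astrocytes. The 24 rises after day 6 all had an adjusted p of 4.63e-05 or lower. A change means a limma test with a Benjamini-Hochberg adjusted p under 0.05 over all 19938 genes and a difference of at least 1 on the log2 intensity scale, which is a 2-fold change. By the same rule 6.75% of all genes rose and 10.1% fell at day 6 against astrocytes, 3.29% rose and 2.82% fell in astrocyte iPSCs against day 6, and 9.44% rose and 11.4% fell in astrocyte iPSCs against astrocytes. The median log2 difference over the 34 genes was 0.31 at day 6 against astrocytes, where the median of all genes was 0.04. It was 1.84 in astrocyte iPSCs against day 6, where the median of all genes was -0.03. The arrays of both groups did not overlap for 21 of the 34 genes between day 6 and astrocytes (55.9% of all genes), for 34 between astrocyte iPSCs and day 6 (53.4%) and for 32 between astrocyte iPSCs and astrocytes (63.4%). They did not overlap for 26 between day 6 and neural stem cells (63.9%), for 21 between MEF and astrocyte iPSCs (45.1%) and for 13 between neural stem cells and astrocytes (59.3%). In whole-population RNA, fewer cells expressing a gene and less RNA of it per cell cannot be told apart.

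Beside these differences, fibroblast markers moved with the iPSC arrays, which came from cells grown on fibroblast feeders. Of 12 listed, 11 were measured and 8 rose in astrocyte iPSCs against day 6, with Dcn, Lum, Postn and Pdgfra in front. Their summed intensity was 4023 in replicate 1 and 7057 in replicate 2 of the astrocyte iPSCs, against 1468 to 1655 at day 6. It was 3395 to 3625 in MEF iPSCs and 10046 to 10755 in astrocytes. The astrocyte sum was led by Ogn and Thy1, with mean log2 intensities of 12.25 and 11.79. Dcn, Lum, Postn and Pdgfra were instead higher in astrocyte iPSCs than in astrocytes, by 3.48, 3.19, 1.64 and 1.68. In that comparison 5 of the 11 rose and 2 fell, and at day 6 against astrocytes 5 fell and none rose. Of the 34 pluripotency genes, 28 were lower in astrocyte iPSC replicate 2 than in replicate 1, with a median difference of -0.20. The same difference was not computed over all genes, so a general offset between both arrays cannot be told apart from one of the list. Without replicate 2, 25 of the 34 rose against day 6. The part of feeder RNA in the differences was not tested.

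**Figure D1:**
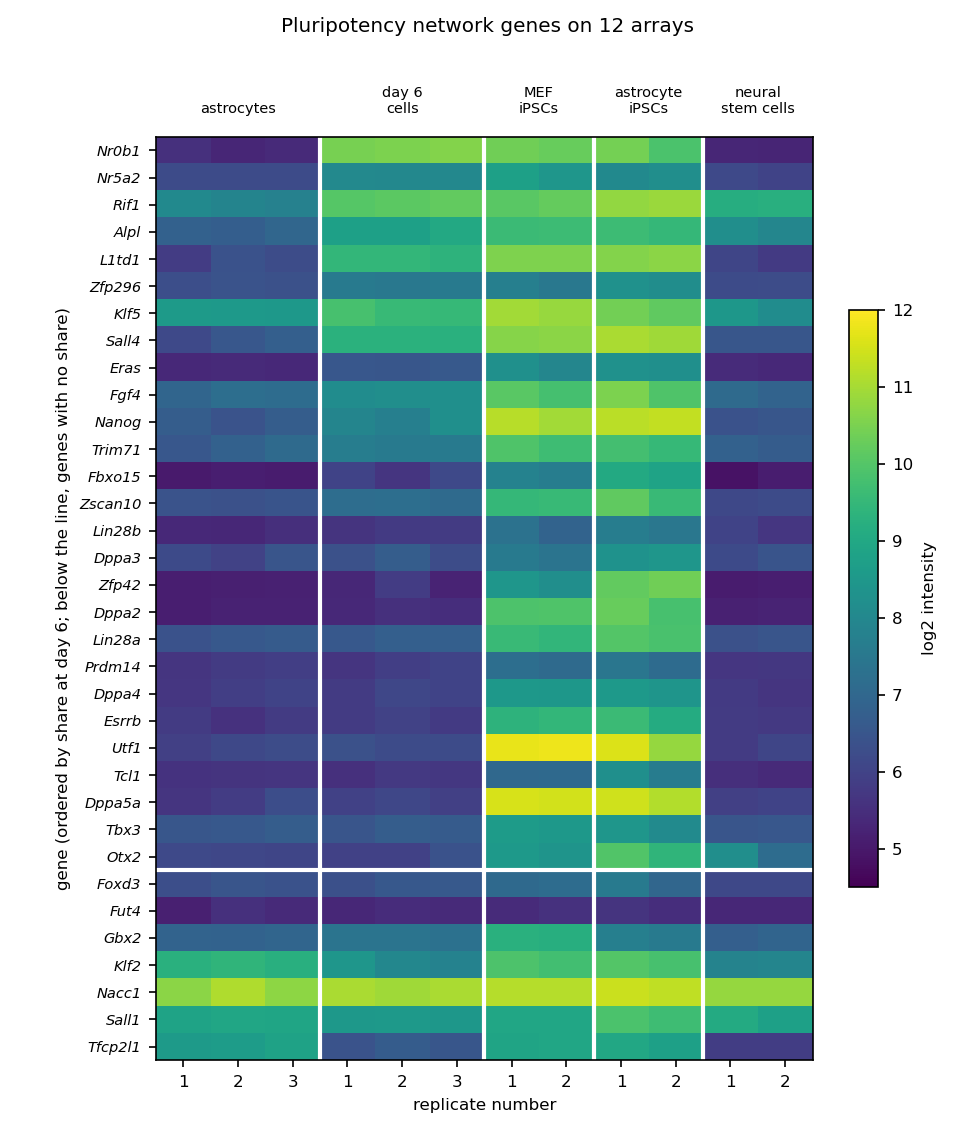
Log2 intensity of the 34 genes (rows, ordered by the share reached at day 6, with the 7 genes without a share at the bottom) on each of the 12 arrays (columns, by group). The upper rows, led by Nr0b1 and Nr5a2, are already bright on the day 6 arrays, and the rows from Lin28b down to Otx2 are brightest on the iPSC arrays, with Otx2 also brighter on the neural stem cell arrays than in astrocytes.

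For the 27 genes that were higher in astrocyte iPSCs than in astrocytes, the share was the day 6 minus astrocyte difference divided by the astrocyte iPSC minus astrocyte difference, both in log2 intensity. Both differences use the same astrocyte arrays, so the share is a description without a test. It ran from 108% for Nr0b1 to -0.39% for Otx2, with a median of 21.5%. It was over 50% for 8 genes, between 10% and 50% for 8 and under 10% for 11. Dppa3 lay just above 10%, at 10.1%, and moved between 3.82% and 15.1% as each array was left out and to 5.75% with the mean of its probe sets. The shares fell into an early set (Nr0b1, Nr5a2, Rif1, Alpl, L1td1, Zfp296, Klf5 and Sall4, down to 61.7%), followed by a gap down to Eras at 40.5%. Leaving out each array in turn moved the share of Nr0b1 between 102% and 115%, that of Nanog between 25.9% and 31.5% and that of Prdm14 between -1.02% and 11.1%. To set an error beside these values, the day 6 mean was contrasted with the midpoint of astrocytes and astrocyte iPSCs in limma, with no fold limit. The contrast uses the values that ordered the genes, and for genes with a share its sign follows from the share. It is therefore no independent evidence of the order. In it 7 of the 34 genes passed above the midpoint, 23 passed below it and 4 did not pass. The 23 include Tfcp2l1, Klf2, Sall1 and Foxd3, which have no share. Among all genes 19.1% passed above and 21.7% below. These percentages mix genes that rise and genes that fall towards iPSCs, so they are no like background for the list. Klf5, with a share over 50%, stood 0.21 ± 0.09 from the midpoint (SE, adjusted p = 0.0979).

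**Figure D2:**
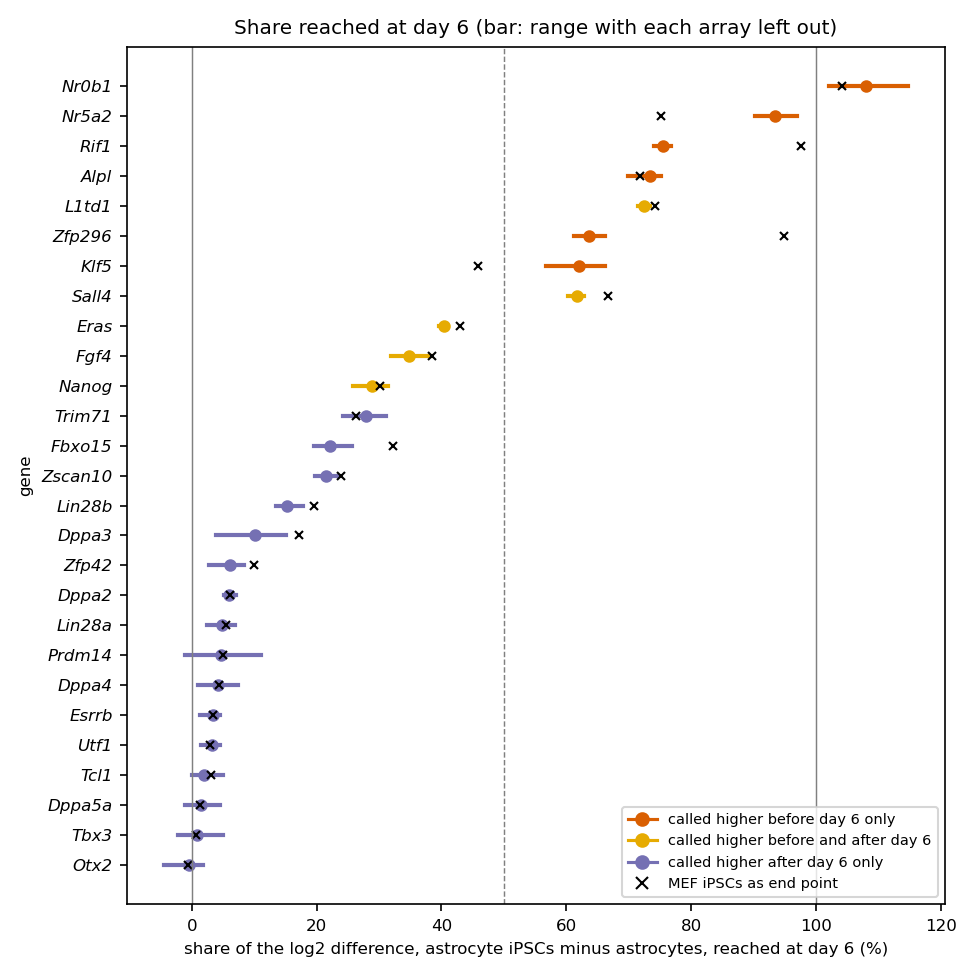
Share of the astrocyte-to-iPSC difference in log2 intensity reached at day 6, in percent, for the 27 genes higher in astrocyte iPSCs than in astrocytes. Points use astrocyte iPSCs as the end point, crosses MEF iPSCs, and lines show the range when each array is left out in turn. Nr0b1 and Nr5a2 sit at or near 100%, 8 genes lie over 50%, and 11 lie under 10%.

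Among the naive-state transcription factors (11 genes), 4 rose at day 6, 2 fell and 7 rose between day 6 and astrocyte iPSCs. Nr0b1, a nuclear receptor family member without a classical DNA-binding domain that associates with Oct4 and Nanog, had the largest difference at day 6. It had log2 intensities of 5.55, 5.32 and 5.40 in astrocytes, 10.46, 10.52 and 10.61 at day 6 and 10.42 and 9.87 in astrocyte iPSCs. All 3 day 6 arrays lay above both iPSC arrays. The day 6 difference from astrocytes was 5.11 ± 0.12 (SE, adjusted p = 5.5e-11), and the further difference in astrocyte iPSCs against day 6 was -0.38 ± 0.13 (SE, adjusted p = 0.0543), below the fold limit. Nr5a2, a nuclear receptor that binds the regulatory regions of Oct4, was also at about its iPSC level by day 6. Its values were 6.23, 6.22 and 6.21 in astrocytes, 8.04, 7.99 and 8.0 at day 6 and 8.07 and 8.21 in astrocyte iPSCs. The day 6 arrays stood 1.79 ± 0.08 above astrocytes (SE, adjusted p = 7.26e-09) and differed from astrocyte iPSCs by only 0.12 (adjusted p = 0.39).

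The promoter windows of the genes at both ends of the order, Nr0b1 with the highest share and Otx2 with the lowest, are shown because they mark its extremes. Windows from RefSeq (GRCm38.p6) run from 250 bases before to 50 after an annotated start, and 23 of the 34 genes matched 1 or more of them by symbol. A pair of motifs known from Sox factor binding (ACAAAG and ACAATG), the octamer ATGCAAAT bound by Oct4, an Esrrb-type nuclear receptor motif (AAGGTCA), a Klf-type motif (GGGTGTGG) and a GC box (GGGGCGGGG) were searched on both strands, and matches stand in capitals. The Nr0b1 window (chrX:86191525-86191824, plus strand) holds 1 ACAAAG, 101 bases before the start. The Otx2 window (chr14:48667595-48667894, minus strand) is the first of its 4 annotated starts and holds none of the 6 motifs.
Nr0b1: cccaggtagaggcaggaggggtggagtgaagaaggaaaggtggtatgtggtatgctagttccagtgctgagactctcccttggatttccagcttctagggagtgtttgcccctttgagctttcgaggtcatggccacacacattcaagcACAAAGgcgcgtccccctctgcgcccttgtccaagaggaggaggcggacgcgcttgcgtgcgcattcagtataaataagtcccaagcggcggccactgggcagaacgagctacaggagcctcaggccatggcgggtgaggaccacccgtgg
Otx2: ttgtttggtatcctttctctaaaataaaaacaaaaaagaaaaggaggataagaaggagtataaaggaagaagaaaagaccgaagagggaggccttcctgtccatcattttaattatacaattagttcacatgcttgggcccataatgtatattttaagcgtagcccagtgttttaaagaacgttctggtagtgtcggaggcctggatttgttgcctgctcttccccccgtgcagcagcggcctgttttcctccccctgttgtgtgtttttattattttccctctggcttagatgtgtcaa
ACAAAG occurs in 18.7% of all 32851 windows, so a single match is common.

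Klf5 and Nanog made up the rest of the risen naive factors. Klf5, a Krüppel-like factor that acts in embryonic stem cell self-renewal, had values of 8.58, 8.56 and 8.51 in astrocytes, 9.82, 9.55 and 9.52 at day 6 and 10.39 and 10.18 in astrocyte iPSCs. Its groups did not overlap, and the difference of 1.08 ± 0.10 (SE, adjusted p = 3e-06) lay close to the fold limit. It was 0.92 after cyclic loess normalization and 0.99 without day 6 replicate 1, so the call ended in both cases. Nanog, the homeodomain factor at the centre of the circuit, had 6.71, 6.43 and 6.72 in astrocytes, 7.93, 7.72 and 8.24 at day 6 and 11.24 and 11.31 in astrocyte iPSCs. Every day 6 array lay above every astrocyte array and far below both iPSC arrays. Nanog rose by 1.35 ± 0.13 at day 6 (SE, adjusted p = 3.01e-06) and by a further 3.31 ± 0.14 in astrocyte iPSCs (SE, adjusted p = 2.55e-08). Day 6 thus lay below the midpoint (difference -0.98), on the side that the share already fixes.

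The decrease at day 6 fell on Tfcp2l1 and Klf2. Tfcp2l1, a LIF and Stat3 target that sustains the naive state, had 8.58, 8.64 and 8.81 in astrocytes, 6.43, 6.69 and 6.52 at day 6 and 9.0 and 8.78 in astrocyte iPSCs. Astrocytes were thus almost as bright as iPSCs, and day 6 was the low point of the course. Tfcp2l1 was -2.13 ± 0.09 against astrocytes at day 6 (SE, adjusted p = 3.83e-09) and 2.34 ± 0.10 in astrocyte iPSCs against day 6 (SE, adjusted p = 2.31e-08). Klf2, a Krüppel-like factor that maintains ground-state pluripotency and also acts in endothelial and immune cells, had 9.27, 9.42 and 9.24 in astrocytes, 8.44, 7.96 and 7.82 at day 6 and 10.01 and 9.82 in astrocyte iPSCs. It differed by -1.23 ± 0.14 at day 6 (SE, adjusted p = 1.1e-05) and by 1.84 ± 0.15 in the step to astrocyte iPSCs (SE, adjusted p = 3.94e-06). Neither gene was called between astrocyte iPSCs and astrocytes, with differences of 0.21 for Tfcp2l1 and 0.61 for Klf2, and so neither has a share.

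**Figure D3:**
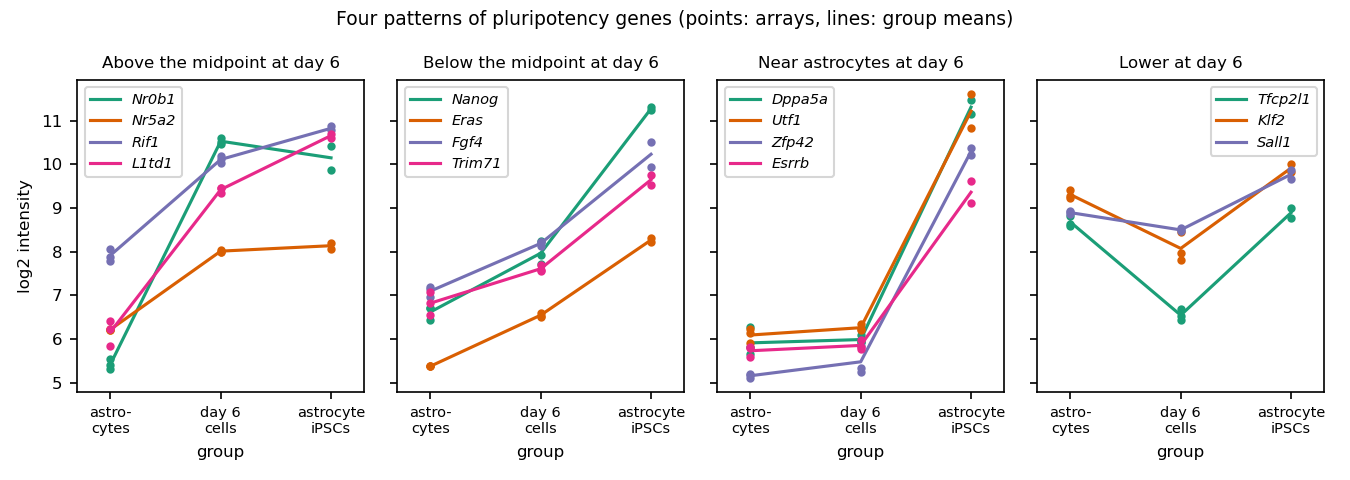
Log2 intensity of single arrays (points) and group means (lines) in astrocytes, day 6 cells and astrocyte iPSCs for 15 genes in 4 panels. Nr0b1 and Nr5a2 are at about the iPSC level by day 6, Nanog, Eras, Fgf4 and Trim71 take their larger step after day 6, Dppa5a, Utf1, Zfp42 and Esrrb stay near the astrocyte level until the iPSC arrays, and Tfcp2l1 and Klf2 dip at day 6, as does Sall1 by less than the fold limit.

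The remaining naive factors rose late or not by the set limit. Esrrb, an orphan nuclear receptor that is a direct Nanog target, had 5.80, 5.58 and 5.82 in astrocytes, 5.81, 5.99 and 5.77 at day 6 and 9.62 and 9.10 in astrocyte iPSCs. Tbx3, a T-box factor downstream of LIF, had 6.50, 6.57 and 6.71 in astrocytes, 6.46, 6.71 and 6.65 at day 6 and 8.45 and 8.08 in astrocyte iPSCs. For both genes the day 6 and astrocyte arrays overlapped, and only the iPSC arrays stood apart. In astrocyte iPSCs Esrrb rose by 3.51 ± 0.14 against day 6 (SE, adjusted p = 1.05e-08) and Tbx3 by 1.66 ± 0.11 (SE, adjusted p = 8.8e-07). Zfp42 (Rex1), a zinc finger protein used as a marker of naive cells, rose by 4.81 ± 0.15, and Prdm14, a regulator that represses FGF signalling and DNA methylation, by 1.43 ± 0.12. The largest of the second-step differences in the list were those of Dppa5a, Utf1, Zfp42 and Dppa2. Gbx2, a homeobox gene induced by LIF, passed neither step by the fold limit, with 0.47 ± 0.07 at day 6 (SE, adjusted p = 0.000123) and 0.29 ± 0.08 after it (SE, adjusted p = 0.0158).

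The general pluripotency factors (9 genes) held 3 that rose at day 6, none that fell, and 5 that rose between day 6 and astrocyte iPSCs. Sall4, a spalt-family zinc finger protein and partner of Oct4, had 6.16, 6.54 and 6.79 in astrocytes, 9.28, 9.28 and 9.25 at day 6 and 11.05 and 10.94 in astrocyte iPSCs. The day 6 arrays were nearly identical to each other and far from both ends, at 2.78 ± 0.12 above astrocytes (SE, adjusted p = 5.47e-09) and 1.72 ± 0.14 below astrocyte iPSCs (SE, adjusted p = 2.69e-06). Rif1, which protects telomeres and sets replication timing, had 8.07, 7.88 and 7.80 in astrocytes, 10.03, 10.12 and 10.19 at day 6 and 10.78 and 10.87 in astrocyte iPSCs. It stood 2.19 ± 0.08 above astrocytes at day 6 (SE, adjusted p = 1.37e-09), with the remaining 0.71 under the fold limit. Zfp296, a zinc finger cofactor of Klf4, had 6.31, 6.41 and 6.37 in astrocytes, 7.58, 7.50 and 7.59 at day 6 and 8.30 and 8.16 in astrocyte iPSCs. The day 6 arrays lay between the others without overlap, 1.19 ± 0.07 above astrocytes (SE, adjusted p = 5.44e-08).

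In contrast to these, Utf1 and Otx2 did not pass the test at day 6, with 0.17 ± 0.17 for Utf1 and -0.01 ± 0.23 for Otx2 against astrocytes (SE, adjusted p = 0.452 and 0.969). Utf1, a chromatin-associated factor that is an Oct4 and Sox2 target, had 5.91, 6.14 and 6.23 in astrocytes, 6.35, 6.22 and 6.21 at day 6 and 11.60 and 10.83 in astrocyte iPSCs. Otx2, a homeobox gene of the forebrain that also drives exit from the naive state, had 6.15, 6.11 and 6.07 in astrocytes, 5.94, 5.96 and 6.38 at day 6 and 9.97 and 9.41 in astrocyte iPSCs. Day 6 and astrocyte arrays overlapped for both genes. In astrocyte iPSCs against day 6, Utf1 rose by 4.96 ± 0.19 (SE, adjusted p = 8.19e-09) and Otx2 by 3.60 ± 0.26 (SE, adjusted p = 1.36e-06). Zscan10, a zinc finger factor of the Oct4 and Sox2 circuit, had an intermediate value of 0.75 ± 0.12 at day 6 (SE, adjusted p = 0.000224), under the fold limit, before it rose by 2.72 ± 0.13. Sall1, the spalt relative of Sall4 that is already expressed in neural cells, was -0.40 ± 0.09 at day 6 against astrocytes (SE, adjusted p = 0.00202) and then rose by 1.27 ± 0.10. Foxd3 and Nacc1 passed neither step, with 0.76 for Foxd3, a forkhead factor of pluripotent and neural crest cells, and 0.32 for Nacc1, a BTB-domain protein, in astrocyte iPSCs against day 6. Foxd3 reached 1.05 without astrocyte iPSC replicate 2, which brought it over the limit.

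The octamer was found in the windows of Zfp296 and Zfp42 alone among the 23 matched genes, and it occurs in 1.74% of all windows. These windows were chosen after the matches were seen, and they belong to a gene of the early set and a gene of the late one. The Zfp296 window (chr7:19577037-19577336, plus strand) holds the octamer on the reverse strand 111 bases before the start and a GC box, again reversed, 35 bases before it. The Zfp42 window (chr8:43306960-43307259, minus strand) holds a reversed octamer 186 bases before the start and a reversed Klf-type motif 75 bases before it.
Zfp296: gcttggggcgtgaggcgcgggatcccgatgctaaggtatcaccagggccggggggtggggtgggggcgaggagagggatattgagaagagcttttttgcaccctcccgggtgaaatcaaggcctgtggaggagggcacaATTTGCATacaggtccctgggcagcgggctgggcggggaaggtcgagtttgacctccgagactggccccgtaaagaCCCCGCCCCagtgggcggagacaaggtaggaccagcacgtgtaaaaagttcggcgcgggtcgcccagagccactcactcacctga
Zfp42: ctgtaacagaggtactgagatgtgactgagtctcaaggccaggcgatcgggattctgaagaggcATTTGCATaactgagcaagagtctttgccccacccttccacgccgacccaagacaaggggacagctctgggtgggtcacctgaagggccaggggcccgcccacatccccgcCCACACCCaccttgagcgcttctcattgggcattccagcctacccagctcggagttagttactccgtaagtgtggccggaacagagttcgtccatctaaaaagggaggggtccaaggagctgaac
GGGTGTGG occurs in 3.56% and the GC box in 11.5% of all windows. AAGGTCA, in 4.72% of all windows, was in none of the matched windows. A match is a string of letters in this window and carries no information on binding in these cells.

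Of the 4 Dppa genes, none passed the test at day 6 and all 4 rose in astrocyte iPSCs. Dppa5a, a KH-domain RNA-binding protein of early embryos, had 5.65, 5.82 and 6.27 in astrocytes, 5.94, 6.10 and 5.93 at day 6 and 11.47 and 11.15 in astrocyte iPSCs. Its day 6 arrays fell within the astrocyte range, and the rise of 5.32 ± 0.15 after day 6 (SE, adjusted p = 1.3e-09) was the largest of the 34 in that step. Dppa2, which pairs with Dppa4 at the promoters of early-embryo genes, rose by 4.56 ± 0.11 after day 6, Dppa4 by 2.51 ± 0.11 and Dppa3 (Stella), which guards DNA methylation in the early embryo, by 1.95 ± 0.16. Dppa2, Dppa3 and Dppa4 each had another, dimmer probe set annotated to the same gene. On these the rise after day 6 was 3.45 for Dppa2, 2.44 for Dppa3 and 4.0 for Dppa4, with day 6 differences of 0.11, 0.05 and 0.07 from astrocytes. The calls were the same on either probe set, while the size of the rise differed by over 1 log2 unit for Dppa2 and Dppa4. Nacc1 also had another probe set, with 0.22 at day 6 against astrocytes and 0.24 in astrocyte iPSCs against day 6, and passed neither step on it. Whether each of these probe sets reads the gene itself or a near-identical copy was not tested.

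Of the 4 RNA-binding regulators, 1 rose at day 6 and all 4 rose afterwards. L1td1, a LINE-1-derived RNA-binding protein, had 5.84, 6.40 and 6.24 in astrocytes, 9.46, 9.46 and 9.34 at day 6 and 10.61 and 10.70 in astrocyte iPSCs. The larger step came first, at 3.26 ± 0.13 (SE, adjusted p = 2.23e-09), with 1.24 ± 0.14 after day 6 (SE, adjusted p = 4.63e-05). Lin28a and Lin28b, which both block maturation of the let-7 miRNAs, stayed near the astrocyte level at day 6, with differences of 0.16 ± 0.09 for Lin28a and 0.33 ± 0.12 for Lin28b (SE, adjusted p = 0.175 and 0.0382). In astrocyte iPSCs against day 6, Lin28a rose by 3.23 ± 0.10 and Lin28b by 1.84 ± 0.13. Trim71, a let-7 target that acts as a ubiquitin ligase and RNA-binding protein, had 0.79 ± 0.13 at day 6 (SE, adjusted p = 0.000235), under the fold limit, and rose by 2.04 ± 0.14 after it.

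The signalling, enzyme and surface genes (6 genes) held 3 that rose at day 6 and 4 that rose after it. Alpl encodes the tissue-nonspecific alkaline phosphatase whose activity is stained to find reprogrammed colonies. Its values were 6.82, 6.74 and 6.98 in astrocytes, 8.75, 8.75 and 9.03 at day 6 and 9.63 and 9.51 in astrocyte iPSCs, a rise of 2.0 ± 0.10 at day 6 (SE, adjusted p = 1.44e-08) that left 0.72 to the second step. Eras, a constitutively active Ras-like GTPase of embryonic stem cells, had 5.37, 5.39 and 5.37 in astrocytes, 6.54, 6.51 and 6.59 at day 6 and 8.31 and 8.23 in astrocyte iPSCs. Eras rose in both steps, by 1.17 ± 0.08 (SE, adjusted p = 1.22e-07) and then by 1.72 ± 0.09 (SE, adjusted p = 7.52e-08). Fgf4, the ligand of the FGF and ERK pathway that Oct4 and Sox2 switch on together, had 6.95, 7.20 and 7.14 in astrocytes, 8.14, 8.21 and 8.22 at day 6 and 10.51 and 9.95 in astrocyte iPSCs. It rose by 1.09 ± 0.14 (SE, adjusted p = 2.74e-05), a value near the fold limit, and then by 2.04 ± 0.15 (SE, adjusted p = 1.56e-06).

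Tcl1, a co-activator of the kinase Akt, belonged to the late genes. It had 5.59, 5.63 and 5.65 in astrocytes, 5.53, 5.76 and 5.72 at day 6 and 8.25 and 7.64 in astrocyte iPSCs. Day 6 and astrocyte arrays overlapped, and Tcl1 rose by 2.28 ± 0.14 in the second step (SE, adjusted p = 4.25e-07). Fbxo15, the F-box gene used as an early reporter in iPSC work, was 0.86 ± 0.12 above astrocytes at day 6 (SE, adjusted p = 5.45e-05), under the fold limit, and rose by 3.01 ± 0.13 in astrocyte iPSCs. After 16 intensity units were subtracted from every value before log2, the day 6 difference of Fbxo15 was 1.34 and passed the limit. Fut4, the fucosyltransferase that can make the SSEA1 surface antigen, lay between 5.17 and 5.62 on all arrays of the 3 stages and passed no comparison.

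**Figure D4:**
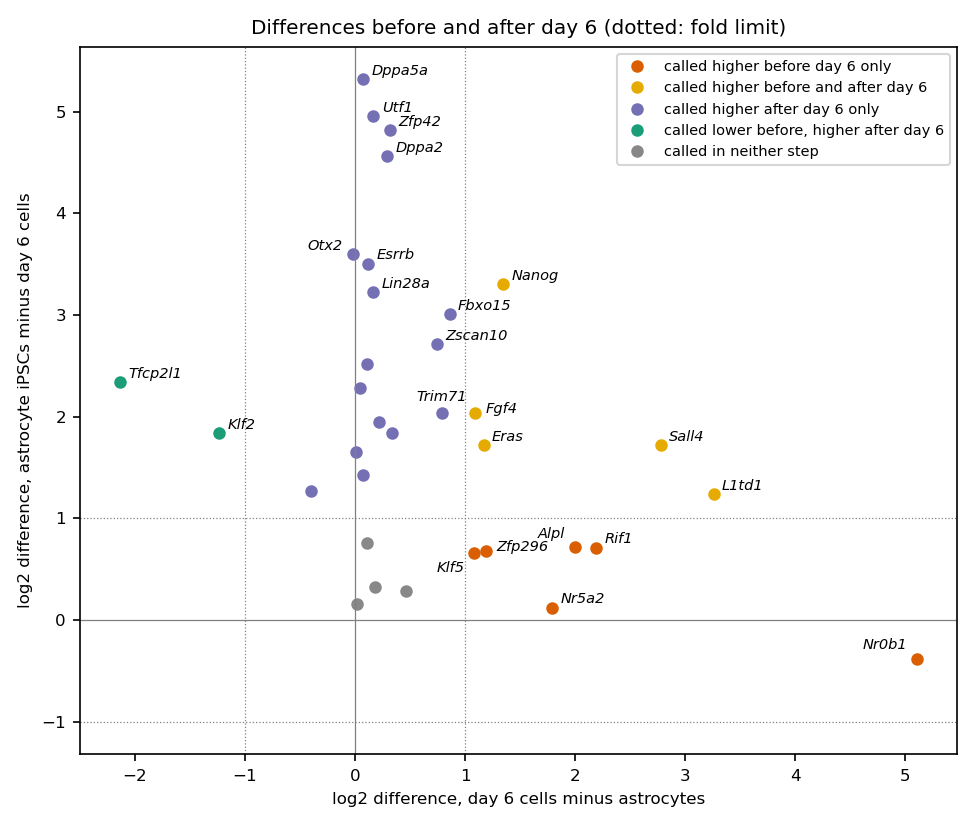
Log2 difference of the 34 genes at day 6 against astrocytes (horizontal axis) and in astrocyte iPSCs against day 6 (vertical axis). Colours give the step or steps in which a gene was called. Both axes use the day 6 arrays, so their relation is not read as a result. Nr0b1 lies far to the right near 0 on the vertical axis, Dppa5a, Utf1, Zfp42 and Dppa2 lie near 0 on the horizontal axis at 4.56 or more on the vertical, and Tfcp2l1 and Klf2 lie to the left of 0.

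No share was computed for 7 genes. Besides Tfcp2l1 and Klf2 these were Sall1, Gbx2, Foxd3, Nacc1 and Fut4, which were not called between astrocyte iPSCs and astrocytes, with differences of 0.88 for Sall1, 0.75 for Gbx2, 0.86 for Foxd3, 0.50 for Nacc1 and 0.18 for Fut4. Nacc1 was bright in every group, between 10.68 and 11.41. Sall1 at 0.88 was the nearest outside the limit of 1, and Prdm14 at 1.50 had the smallest difference among the 27 inside it.

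With MEF iPSCs in place of astrocyte iPSCs as the end point, 11 of the 27 shares moved by more than their spread over the day 6 arrays. The median share was then 23.9%, with 7 genes over 50% and 10 under 10%. Rif1 moved to 97.6%, Zfp296 to 94.8%, Nr5a2 to 75.2%, Fbxo15 to 32.2% and Klf5 to 45.8%, the last of which was over 50% against astrocyte iPSCs. The share also depends on the scale. On linear intensity the median was 6.48%, 4 genes were over 50% (Nr0b1, Nr5a2, Rif1 and Alpl) and 16 were under 10%, Nanog among them at 6.48%.

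Against neural stem cells, the other neural group of the study, 9 of the 34 genes rose at day 6 and 1 fell, where 2.94% of all genes rose and 5.94% fell. This comparison shares the day 6 arrays with the one against astrocytes. The 9 were Nr0b1 at 5.25 ± 0.13, L1td1 at 3.50 ± 0.14, Sall4 at 2.77 ± 0.14, Nr5a2 at 1.94 ± 0.09, Nanog at 1.52 ± 0.14, Klf5 at 1.33 ± 0.12, Zfp296 at 1.33 ± 0.08, Fgf4 at 1.21 ± 0.15 and Eras at 1.15 ± 0.09 (SE; limma adjusted p between 3.74e-10 and 6.7e-05). Alpl and Rif1 were not called here, and both were higher in neural stem cells than in astrocytes. Alpl had 8.75, 8.75 and 9.03 at day 6, 8.20 and 7.93 in neural stem cells and 6.82, 6.74 and 6.98 in astrocytes. Rif1 had 10.03, 10.12 and 10.19 at day 6, 9.18 and 9.24 in neural stem cells and 8.07, 7.88 and 7.80 in astrocytes. For both genes neural stem cells lay between the other groups without overlap. Neural stem cells were above astrocytes by 1.22 ± 0.11 for Alpl (SE, adjusted p = 3.14e-06) and by 1.29 ± 0.09 for Rif1 (SE, adjusted p = 3.44e-07).

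Otx2 was the gene that fell against neural stem cells. It had 5.94, 5.96 and 6.38 at day 6 and 8.21 and 7.14 in neural stem cells, a difference of -1.58 ± 0.26 (SE, adjusted p = 0.000547), with neural stem cell replicate 1 well above replicate 2. Klf2 and Tfcp2l1 were low in neural stem cells as well. Klf2 had 8.44, 7.96 and 7.82 at day 6 against 7.86 and 7.90 in neural stem cells, and Tfcp2l1 had 6.43, 6.69 and 6.52 at day 6 against 5.87 and 5.87 in neural stem cells. Between neural stem cells and astrocytes 5 of the 34 genes were called: Otx2, Rif1 and Alpl were higher in neural stem cells, Tfcp2l1 and Klf2 were lower, and the median difference was -0.08, against 6.49% of all genes called higher and 8.1% called lower.

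The 2 iPSC groups differed in 4 of the 34 genes, 1 higher and 3 lower in MEF iPSCs, where 0.281% of all genes were higher and 0.461% lower. Gbx2 had 9.26 and 9.20 in MEF iPSCs and 7.74 and 7.55 in astrocyte iPSCs, a difference of 1.58 ± 0.09 (SE, adjusted p = 2.79e-06). Zfp42 had 8.45 and 8.21 in MEF iPSCs and 10.21 and 10.38 in astrocyte iPSCs, a difference of -1.96 ± 0.16 (SE, adjusted p = 5.14e-05). Fbxo15 had 7.83 and 7.67 in MEF iPSCs and 9.05 and 8.85 in astrocyte iPSCs, a difference of -1.20 ± 0.14 (SE, adjusted p = 0.000628). None of these 3 genes overlapped between the groups. A further 7 genes passed the adjusted p but not the fold limit: Klf5 at 0.62 and Nr5a2 at 0.47 on the higher side, and Dppa3 at -0.90, Tcl1 at -0.90, Sall1 at -0.83, Rif1 at -0.66 and Zfp296 at -0.61 on the lower side.

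Otx2 had 8.52 and 8.39 in MEF iPSCs and 9.97 and 9.41 in astrocyte iPSCs, a difference of -1.23 ± 0.29 (SE, adjusted p = 0.0294). This call rested on single arrays: without astrocyte iPSC replicate 1 the difference was -0.95 (adjusted p = 0.194), without MEF iPSC replicate 1 it was -1.30 (adjusted p = 0.122), and without MEF iPSC replicate 2 it was -1.17 (adjusted p = 0.174). Tcl1 had 7.03 and 7.07 in MEF iPSCs and 8.25 and 7.64 in astrocyte iPSCs. Its difference of -0.90 ± 0.16 (SE, adjusted p = 0.00648) was under the fold limit and reached -1.20 without astrocyte iPSC replicate 2. Nanog, whose reporter the MEF line carries, had 11.20 and 10.96 in MEF iPSCs and 11.24 and 11.31 in astrocyte iPSCs, a difference of -0.19 ± 0.16 (SE, adjusted p = 0.7). With 2 arrays a group, and 1 clonal line with its own reporter allele and cell of origin as the MEF iPSCs, these features cannot be told apart. The median difference over the list was -0.14.

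**Figure D5:**
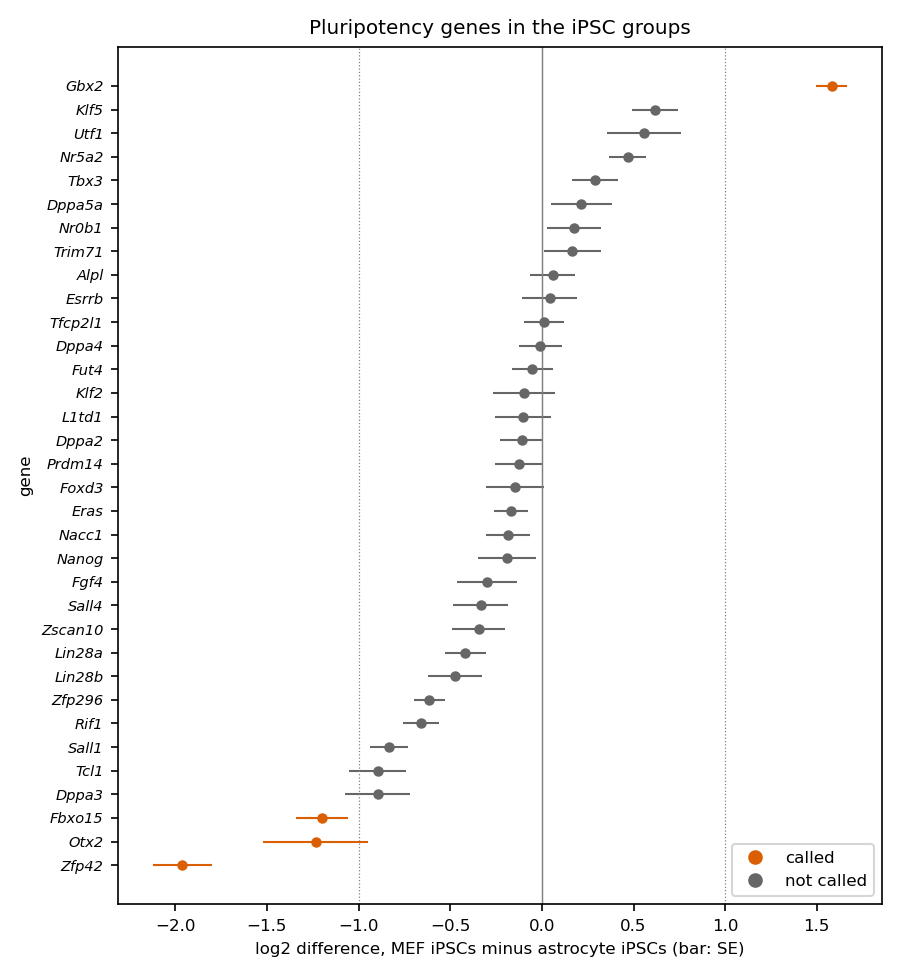
Log2 difference of each of the 34 genes in MEF iPSCs against astrocyte iPSCs, with limma standard errors. Gbx2 stands alone on the higher side of the limit of 1, and Zfp42, Otx2 and Fbxo15 lie beyond -1.

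Other genes of the pluripotency network were read for comparison. Of 30 further genes, 28 were measured, and 11 rose and 3 fell at day 6 against astrocytes. Of all genes, 6.75% rose and 10.1% fell in this comparison. The number that fell is near that share and is not read as a result about these genes. Epcam, an epithelial adhesion protein, rose by 3.04 ± 0.07, the cell cycle regulator Mybl2 by 2.92 ± 0.16 and Jarid2, a Polycomb cofactor, by 2.55 ± 0.10, whereas Sox2 fell by 2.50 (SE 0.07). Sox2, which astrocytes also express, averaged 8.69 ± 0.11 at day 6 and 11.19 ± 0.08 in astrocytes (SD, n = 3 each). In the step to astrocyte iPSCs 18 of the 28 rose and none fell, against 3.29% and 2.82% of all genes. The rises were led by Tdgf1 (Cripto) at 5.66 ± 0.13, Pou5f1 (Oct4) at 4.47 ± 0.17, Dnmt3l at 4.18 ± 0.09 and Dnmt3b at 3.77 ± 0.09 (SE). Pou5f1 and Sox2 were delivered by virus, as were Klf4 and c-Myc, and whether their probe sets read the viral transcripts was not tested.

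The labelled cell types were checked against marker lists. Of 12 astrocyte markers, 10 fell at day 6, and their summed intensity was 2416 to 2526 at day 6 against 30729 to 35258 in astrocytes, with Gfap, Sparcl1, Atp1b2 and Slc1a3 in front. Of 10 neural stem cell markers measured, 6 fell at day 6 against astrocytes and 7 against neural stem cells, with sums of 1759 to 1881 at day 6, 19223 to 19321 in neural stem cells and 17144 to 19168 in astrocytes. Of all genes, 10.1% fell at day 6 against astrocytes and 5.94% against neural stem cells. The decreases of the neural stem cell markers were led by Fabp7 at -5.69, Sox9 at -4.38, Olig2 at -4.29 and Nr2e1 at -3.33 against astrocytes. Pax6 and Prom1 of the same list were not lower at day 6 than in neural stem cells by the test, with differences of 0.56 and -0.03. Sums of 12 microglial markers ran from 982 to 1039 at day 6 and from 1132 to 1587 in astrocytes, and those of 10 neuronal markers from 8710 to 9165 at day 6 and from 6681 to 8055 in astrocytes. In neural stem cells the neuronal sum was 7062 in replicate 1 and 10575 in replicate 2. Of these 10 markers, 8 were higher and 1 lower in neural stem cells than in astrocytes, against 6.49% and 8.1% of all genes. The part of neuronal cells in the neural stem cell cultures was not tested. Of the neuronal markers, Nefl rose by 5.14 ± 0.10 at day 6 against astrocytes, while Map2 at -2.88 ± 0.08 and Elavl3 at -1.18 ± 0.16 fell (SE). Of the microglial markers, Laptm5 at 1.54 ± 0.21 rose and Lyz2 at -2.54 ± 0.29 fell (SE).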

How the data were processed

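Total RNA of 12 samples was amplified with the GeneChip WT PLUS kit and hybridised, 1 sample per array, per the labels' protocols. The deposited values are probe set intensities on a linear scale, which the authors made by RMA (robust multi-array averaging, with background correction and normalization), as the submitters' processing notes state. No version of it is named in the sources used here. Whether a constant was added before deposit is unknown. Deposited intensities spanned 20.2 to 15436, array medians 97.9 to 104.9, and arrays of a group correlated at 0.992 to 0.996 over genes. Precision is limited by the number of arrays, and the table holds no detection call.

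Here log2 was taken. Of 28853 probe sets, 21789 had 1 gene symbol in GEO's platform annotation, 1621 several and 5443 none. The brightest single-gene probe set over the 12 arrays represented each of 19938 genes. All 34 genes of the list were measured, and all deposited columns were used. Differences came from limma (version 3.58.1, under R 4.3.3) fitted to the 12 arrays together with a mean for each group (residual degrees of freedom 7, and 10.9 once moderated), no block and no filter on dim genes, and p-values were adjusted by the Benjamini-Hochberg method over all genes. Levels are given per array, and errors of differences are limma standard errors (SE). On simulated data of 19938 genes, the same steps recovered 94% to 100% of the changed genes of each comparison, with at most 5 false calls. In the comparisons with a fold limit, every planted difference lay above it, and the noise was normal and independent between genes. The recovery therefore does not cover differences closer to the limit, such as that of Klf5. The list, the other gene lists and the tests were chosen with earlier results of these data known. All 34 genes are named, those called at day 6 or with the 6 highest or lowest shares array by array. From each other list, genes were named among the 4 largest differences of each step. Promoter windows came from RefSeq (GRCm38.p6) and were not compared with the build of the array design, for which no build is named in the sources used here. The alternatives were the threshold, normalization, variance model, probe set choice, dim filter, samples in the fit, replicate block and leaving out each array.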

Additional observations from a re-analysis of the deposited data

How the results depend on the processing

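Of 149 differences of single genes followed through up to 21 alternative settings, none reversed. A further 89 differences, none with an adjusted p under 0.05, were not followed. Of these, 32 changed sign in some setting, and the largest was 0.18. Without the fold limit, 17 genes were higher at day 6 than in astrocytes in place of 11, 16 higher and 2 lower than in neural stem cells in place of 9 and 1, and 3 higher and 8 lower in MEF iPSCs than in astrocyte iPSCs in place of 1 and 3. The percentages of all genes given above for these comparisons used the fold limit. They do not apply to these counts, which are therefore not read as a result about the list. The median share was 23.4% with 16 intensity units subtracted, 23.9% with MEF iPSCs as the end point, 6.48% on linear intensity and 19.6% to 22.8% when each array was left out. Leaving out arrays gave 10 to 11 genes higher at day 6 than in astrocytes and 24 to 25 higher in astrocyte iPSCs than at day 6. It gave 2 to 4 lower in MEF iPSCs than in astrocyte iPSCs and 22 to 23 below the midpoint. Same-numbered astrocyte and day 6 arrays correlated in their deviations from the group means at 0.41, -0.008 and 0.224, and not every array correlated best with its own number. With the replicate number as a block, 8 genes lay above the midpoint, Klf5 joining at 0.23, and 22 below. The block changed no other count of calls in the list. With arrays centred on the median, 4082 of all genes lay above the midpoint and 3988 below, in place of 3812 and 4320, and 7 and 22 of the list. Foxd3 lost its midpoint call in 13 settings and Eras with 16 subtracted (-0.16), Fbxo15 and Zscan10 each gained a call against neural stem cells in 3 settings, and the cause was not tested. The filter on dim genes kept 33 of the 34 genes, leaving out Fut4.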

Other observations

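Genes of the primed epiblast and of early mesendoderm were read alongside the network, since Otx2 drives exit from the naive state. Of 14 such genes 13 were measured (T had no single-gene probe set), and 2 rose at day 6 against astrocytes, Lef1 by 1.36 ± 0.08 and Zic2 by 1.08 ± 0.10 (SE). None fell, and 6.75% of all genes rose and 10.1% fell in this comparison. In astrocyte iPSCs against day 6, 8 of the 13 rose and none fell, against 3.29% and 2.82% of all genes. Sfrp2, a secreted Wnt modulator, rose by 2.70 ± 0.15, the epiblast ligand Fgf5 by 2.62 ± 0.14, Cer1, a secreted Nodal antagonist, by 2.61 ± 0.11 and the T-box factor Eomes by 2.46 ± 0.18 (SE). 

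In MEF iPSCs against astrocyte iPSCs, 4 of the 13 were lower and none higher, against 0.461% and 0.281% of all genes. Cer1 averaged 5.71 ± 0.12 in MEF iPSCs and 8.39 ± 0.15 in astrocyte iPSCs (SD, n = 2 each), a difference of -2.69 ± 0.12 (SE, limma adjusted p = 6.41e-07). Fgf5 averaged 7.53 ± 0.26 in MEF iPSCs and 9.07 ± 0.11 in astrocyte iPSCs, a difference of -1.53 ± 0.15 (SE, limma adjusted p = 0.000199). Eomes differed by -1.39 ± 0.20, and Mixl1, a mesendoderm homeobox gene named after its values were seen, by -1.76 ± 0.14 (SE). Other genes of this list passed the adjusted p but not the fold limit, in both directions. Lef1 at 0.69 ± 0.10 and Pou3f1 at 0.63 ± 0.13 were higher in MEF iPSCs. Foxa2 at -0.85 ± 0.10 and Sfrp2 at -0.81 ± 0.16 were lower (SE, limma adjusted p between 0.00054 and 0.0133). Pou3f1 and Foxa2 were named after their values were seen. The median over the 13 genes was -0.45. Among the naive-state factors in the same comparison, Gbx2 was higher in MEF iPSCs by 1.58 and Klf5 by 0.62 ± 0.13 (SE, limma adjusted p = 0.0155, under the fold limit). Nr5a2 was also higher under the fold limit, as given above, and Zfp42 was lower, at -1.96.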
